A study of Drosophila melanogaster with 41 samples.

Results

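The 150 genes described here were those whose mRNA most distinguished the adult male head of Drosophila melanogaster from the embryo. They were taken from 17027 gene IDs, of which 7270 had a mean of at least 10 CPM (the reads assigned to a gene, scaled to the total reads counted in its library) in wild-type heads. For each gene the mean CPM of wild-type heads, plus 1, was divided by the larger of the mean CPM of 2 embryo groups, plus 1, and the 150 genes were chosen by this measured ratio as the highest. The log2 of this ratio ran from 14.57 for ninaE, the major rhodopsin, to 4.67 for DptB, and the values just inside the limit were 4.69 for CG32726, 4.69 for CG6357 and 4.67 for DptB against 4.66 for CG3597, 4.65 for rdgA and 4.64 for BomBc3 just outside it. These head-to-embryo ratios chose the genes and were not tested.

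The series holds 41 mRNA-seq libraries of ELAV family mutants, all labelled male, in 11 groups of embryos and heads. ELAV and its paralogue FNE are RNA-binding proteins of neurons that select neuronal exons and 3′ ends. The 9 head libraries, 3 in each of 3 groups, were made from pools of 12 heads at an adult age labelled as 72 h. The embryo groups behind the ratio were 4 libraries of wild type at 14 to 16 h and 4 libraries of the control of the 7 to 8 h series, which carried the tagged fnenFNE allele with elav intact.

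Wild-type heads came from the w1118 strain. elavmin heads carried a frame-shift allele of elav made with 1 guide RNA, which disrupts the last RNA-recognition motif and leaves a truncated protein at a very low level. Δelav,fnenFNE heads carried a deletion of elav together with fnenFNE, an edited and epitope-tagged fne that makes only nuclear FNE protein and lacks the cytoplasmic form, so that lack of ELAV and lack of cytoplasmic FNE cannot be told apart in this group. The mutant stocks were kept over balancer chromosomes, Δelav,fnenFNE adults were few, and the study describes their eyes as small. The edited genes were read in all 9 head libraries: elav had 179.7, 208 and 197 CPM in wild type, 231, 273 and 247 in elavmin and 1009, 1193 and 872 in Δelav,fnenFNE, and fne had 308, 339 and 319, 351, 419 and 359.8 and 349, 562 and 316. Since every counted segment of elav kept reads in each library, the small lesion of elavmin and the extent of the deletion cannot be read from these counts. The share of the segment at chrX:517236-519242 in elav counts was 33.1% to 37.6% in wild type and 38.2% to 41.6% in elavmin. In Δelav,fnenFNE it was 10.1% to 15.3%. The elav counts thus set the Δelav,fnenFNE libraries apart from the others, but gave no check of the elavmin label. The eye pigment transporter gene w, which w1118 lacks in part, had a mean of 0.289 ± 0.146 CPM (SD, n = 3) in wild type, 29.3 ± 2.90 in elavmin and 30.3 ± 5.06 in Δelav,fnenFNE. Strain background and the elav and fne alleles therefore cannot be told apart in any comparison of a mutant with wild type.

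Much of this gene set serves vision. In the fly eye, light turns rhodopsin, an opsin bound to a vitamin A derivative, into an active form that signals through a G protein to phospholipase C, and the TRP and TRPL channels then open in the rhabdomere, the stacked membrane of the photoreceptor cell. Each facet holds outer photoreceptors with the opsin encoded by ninaE, and an inner pair, R7 and R8, with opsins for ultraviolet (Rh3, Rh4), blue (Rh5) and green (Rh6) light, while Rh2 is the opsin of the ocelli. Photoreceptors release histamine at their synapses, and cone and pigment cells around them make the lens and the screening pigment. The remaining members encode odorant-binding proteins, short immune peptides, fat body products, clock proteins, neuropeptides and many uncharacterised proteins.

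Promoters of the rhodopsin genes are known to carry a pair of TAAT-type homeodomain half-sites close to the start, so the window from 250 bases before to 50 bases after each annotated start was read from the dm6 assembly with the gene starts of the reference annotation. TAAT and ATT with any 3 bases between them, searched on both strands, occurred in 15.3% of 23973 promoters. They occurred in 34 of the 156 promoters of the 150 genes (21.8%; merged gene IDs have several), and in 16 of the 28 promoters of phototransduction genes (57.1%). Among the promoters of genes that were at least 16-fold lower in Δelav,fnenFNE heads, as given later, 17 of 39 held a match (43.6%), against 17 of 117 of the others (14.5%). All 16 matched phototransduction promoters were among these 17, some of them in the merged inaF entry. Of the 14 genes in no list that were at least 16-fold lower, only PIP82 held a match, so this split largely repeats the phototransduction share. These shares are descriptions of the letters and were not tested as binding sites. For comparison TATAAA occurred in 44.8% of all promoters and 44.9% of those of the members, and TAATCC in 9.27% and 14.1%. The matches in the opsin, arrestin and myosin genes whose values follow are shown with 10 bases on either side, 5′ to 3′ on the strand of the gene, with the match in capitals.
ninaE: taggctggccTAATTGAATTtcaagagcag
Rh3: gcgacaatgcTAATCCAATTccgatgggcc
Rh4: ccacaaagtcTAATTGAATTtggttggcag
Rh5: ctaaactattTAATACAATTagctgtatgt
Rh6: aagtgccggcTAATTGGATTagggcaatta
Arr1: gctgtgcggcTAATTGAATTtagaggggcg
ninaC: tcgccgccgcTAATTGAATTagccagctaa
These stretches lie at chr3R:19888257-19888286 on the minus strand for ninaE, chr3R:20082484-20082513 on the minus strand for Rh3, chr3L:16862600-16862629 on the minus strand for Rh4, chr2L:12008003-12008032 on the plus strand for Rh5, chr3R:15483070-15483099 on the plus strand for Rh6, chr2L:18078191-18078220 on the plus strand for Arr1 and chr2L:7377621-7377650 on the plus strand for ninaC. The first base of the match was at -70 from the start in ninaE, -53 in Rh3, -102 in Rh4, -140 in Rh5, -78 in Rh6, -68 in Arr1 and -71 in ninaC. The Rh5, Rh6 and ninaC matches overlap a match on the other strand. The Rh3 and Rh6 matches each overlap a TAATCC, in Rh6 on the other strand, and Rh6 holds a further match at -240. The promoters of the opsin gene Rh2 and the arrestin gene Arr2, whose values also follow, held no match to the paired half-sites.

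Head libraries held 17668742 to 34743848 counts. The 150 genes took 12.0% ± 0.39 (SD, n = 3) of the counts of wild-type heads, 7.92% ± 0.22 in elavmin heads and 3.43% ± 0.12 in Δelav,fnenFNE heads, against group means of 0.0250% to 0.0285% in the 4 late embryo groups and 0.00910% to 0.00996% in the 4 early ones. Most of this difference lay in the 24 phototransduction genes, which took 8.90% ± 0.26, 5.0% ± 0.04 and 0.23% ± 0.02 of head counts in the same order. The ranges of the groups did not overlap for either share. The median member had 152 CPM in wild-type heads, 140 in elavmin and 100.0 in Δelav,fnenFNE, and 140 and 126 of the genes kept a mean of at least 10 CPM in the 2 mutants.

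The response of each gene was taken from a test across all genes (edgeR quasi-likelihood, Benjamini-Hochberg adjusted p under 0.05), and fold changes are given on the log2 scale with their standard error. In elavmin heads 58 of the 149 members tested were lower than in wild type, where 10% of the 10639 genes tested were lower, and 14 were higher, where 10.2% of all genes were, so that 72 changed in either direction where 20.2% of all genes did. In Δelav,fnenFNE heads 60 of 150 were lower against a background of 13.8%, and 24 were higher against 14.4%, or 84 in either direction against 28.3%. The median member changed by -0.18 in elavmin and -0.04 in Δelav,fnenFNE, and the median of all genes by 0.01 in both. Scaled by library totals the split in Δelav,fnenFNE became 59 lower and 43 higher, with the median of all genes then at 0.19. The same wild-type libraries served both comparisons and the choice of the genes, so a gene that stood high in them by chance would read as lower in both mutants. Between the mutant groups, which used no library of the rule, 39 members were lower in Δelav,fnenFNE than in elavmin heads and 18 higher, against backgrounds of 6.23% and 5.05%, or 57 in either direction against 11.3%. The plot of calls by functional group shows that most phototransduction genes were called lower. Of the 75 genes of no list, 22 were lower and 9 higher in elavmin, and 24 were lower and 16 higher in Δelav,fnenFNE.

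**Figure D1:**
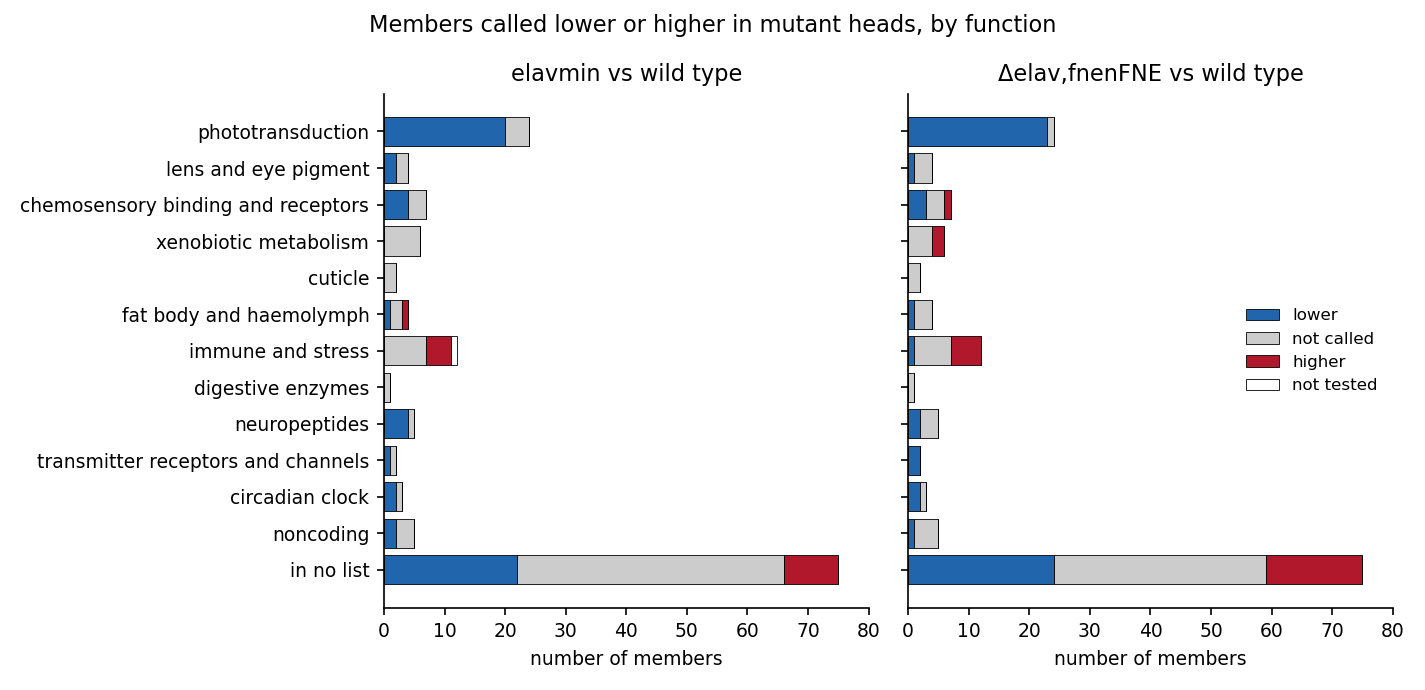
Number of the 150 members called lower (edgeR adjusted p under 0.05), called higher or not called in each head comparison, by functional list on the vertical axis; the horizontal axis counts members. Phototransduction genes were lower in 20 and 23 of 24 cases in elavmin and Δelav,fnenFNE heads, and higher in none.

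Steep falls were more numerous in Δelav,fnenFNE than in elavmin. At least 4-fold lower were 15 members in elavmin, where 0.743% of all genes tested were, and 39 in Δelav,fnenFNE, where 1.45% were. At least 16-fold lower were 6 members in elavmin, 35 in Δelav,fnenFNE and 25 in Δelav,fnenFNE against elavmin, out of 16, 64 and 43 genes in all. The 35 consisted of 21 phototransduction genes and 14 genes in no list. Only 1 and 2 members were at least 4-fold higher in elavmin and Δelav,fnenFNE, at backgrounds of 0.921% and 1.08%. Fewer cells of a type in a head and less RNA in each cell cannot be told apart in these pools, and the 7 photoreceptor markers, all of them members, summed to 67280 to 71138 CPM in wild type, 37362 to 37839 in elavmin and 514 to 562 in Δelav,fnenFNE. The 8 neuron markers, of which none was a member and none below 1 CPM, summed to 6317 to 7318, 5803 to 7158 and 6247 to 6658. Single neuron markers moved in both directions: 3 were lower and 1 higher in elavmin, and 1 was lower and 1 higher in Δelav,fnenFNE.

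All 6 opsin genes were lower in both mutants, in elavmin heads over a wide range of sizes. ninaE, the opsin of outer photoreceptors, had 37919, 36314 and 35889.5 CPM in the wild-type libraries, 20206, 20599.7 and 21005 in elavmin and 103, 99.4 and 125 in Δelav,fnenFNE. No mutant library reached the lowest wild-type one, and the Δelav,fnenFNE libraries were far below all others. The log2 change was -0.92 ± 0.11 in elavmin (edgeR adjusted p = 0.000506), -8.57 ± 0.17 in Δelav,fnenFNE (edgeR adjusted p = 1.06e-09) and -7.64 ± 0.16 between the mutants. At 23116 CPM per kb of exon, ninaE was the most abundant member in wild-type heads by this scale, followed by the arrestin genes Arr2 at 7118 and Arr1 at 4174.

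Rh3 and Rh4, the ultraviolet opsins of R7, and Rh5, the blue opsin of R8, fell further in elavmin. Rh3 went from 959.9, 902 and 888 CPM in wild type to 67.4, 59.9 and 62.6 in elavmin and 0.403, 0.561 and 0.510 in Δelav,fnenFNE. The groups stood in that order without overlap, with changes of -3.94 ± 0.09 and -11.06 ± 0.13, and -7.10 ± 0.14 between the mutants (edgeR adjusted p = 1.98e-09). Rh4 had 975, 925 and 887 CPM in wild type, 2.94, 1.02 and 1.99 in elavmin and 0.489, 1.08 and 1.12 in Δelav,fnenFNE, so that both mutants lay near the bottom of the scale and overlapped each other. Its changes were -8.95 ± 0.24 and -10.28 ± 0.21, and the mutants were not called different (-1.26 ± 0.45, edgeR adjusted p = 0.117). Rh5 had 617, 587 and 575 CPM in wild type, 3.11, 3.61 and 2.37 in elavmin and 1.32, 1.03 and 0.867 in Δelav,fnenFNE. Its changes were -7.71 ± 0.13 and -9.22 ± 0.14, with all Δelav,fnenFNE libraries below those of elavmin (-1.54 ± 0.28, edgeR adjusted p = 0.00706).

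Rh6, the green opsin of the other R8 cells, kept most of its level in elavmin, at 415, 387 and 363 CPM against 592, 552 and 522 in wild type, and had 14.19, 10.7 and 11.8 in Δelav,fnenFNE. The 3 groups did not overlap, and the changes were -0.60 ± 0.08 (edgeR adjusted p = 0.00101) and -5.67 ± 0.13. The ocellar opsin Rh2 had 215, 214 and 205 CPM in wild type, 38.4, 27.5 and 27.8 in elavmin and 9.87, 15.6 and 11.7 in Δelav,fnenFNE, again without overlap, and changed by -2.85 ± 0.13 and -4.28 ± 0.15. Whether the fold change of one opsin differed from that of another was not tested. The plot of opsin levels by library shows that the libraries of one genotype lay close together for each gene on this scale, so that the spread between genotypes was the larger one wherever a call was made.

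**Figure D2:**
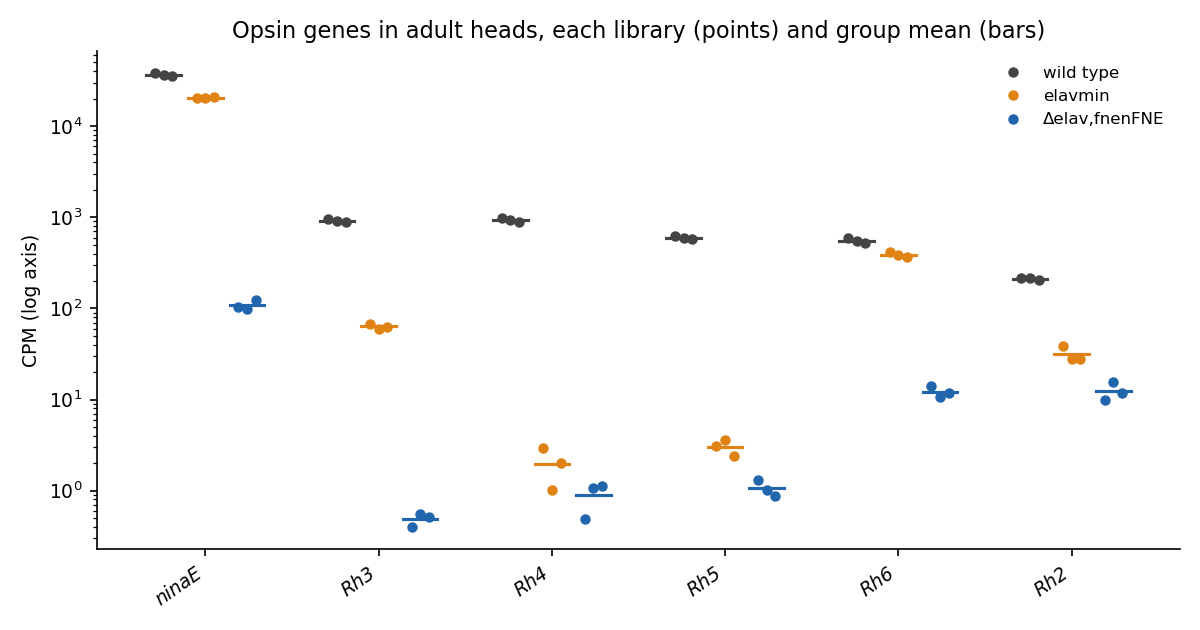
CPM of the 6 opsin genes in each head library on a log axis, coloured by genotype with 3 libraries each. Rh4 and Rh5 drop from over 500 CPM in wild type to under 4 CPM in elavmin, while ninaE and Rh6 stay within a factor of 2 there and drop in Δelav,fnenFNE.

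Genes of the proteins that carry the signal onward fell in elavmin and, apart from norpA, by more than 16-fold in Δelav,fnenFNE. Gbeta76C, the eye-specific beta subunit of the visual G protein, had 1408, 1526 and 1625 CPM in wild type, 1069.7, 1081 and 1080.1 in elavmin and 9.47, 8.84 and 10.7 in Δelav,fnenFNE, changes of -0.59 ± 0.09 and -7.47 ± 0.13. norpA, the phospholipase C, had 2084, 2247 and 2445, 1196, 1352 and 1223 and 259, 247 and 259.9 CPM and changed by -0.93 ± 0.10 and -3.32 ± 0.10. Of the light-gated channels in elavmin, trp fell by 0.98 (edgeR adjusted p = 0.000154) and trpl by 0.40 (edgeR adjusted p = 0.0442), a call that trpl lost in 4 of the 6 fits that left out 1 library. Whether the channels differed was not tested. In Δelav,fnenFNE they changed by -7.996 ± 0.13 and -7.96 ± 0.21. inaF, whose products include a subunit needed for TRP, is read here as 1 merged entry of overlapping genes and changed by -1.18 and -7.40.

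The scaffold and shut-off proteins fell in both mutants, with exceptions in elavmin. inaD, the PDZ scaffold that holds the signalling proteins together, changed by -0.72 in elavmin and -7.12 in Δelav,fnenFNE, and ninaC, the myosin III kinase of the rhabdomere, by -0.70 and -6.97. The arrestins, which silence active rhodopsin, fell in both and changed, Arr2 by -0.89 and -7.29 and Arr1 by -1.49 and -8.12 on the log2 scale. Arr1 had 10762, 10429.7 and 9809.6 CPM in wild type, 3980.2, 3895 and 3858 in elavmin and 34.8, 44.95 and 46.03 in Δelav,fnenFNE, with no overlap. By contrast inaC, the eye protein kinase C, had 802, 836 and 1060.5 CPM in wild type and 857, 878 and 884 in elavmin, and rtp, a rhabdomere protein that works with ninaC, had 749, 712 and 727 and 721, 703 and 707. Their wild-type and elavmin libraries overlapped and neither was called (edgeR adjusted p = 0.45 and 0.251), yet in Δelav,fnenFNE they changed by -6.56 ± 0.19 and -6.37 ± 0.15.

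Structural proteins and chaperones followed the same course. prom, which keeps the rhabdomeres apart, had 353, 359 and 291 CPM in wild type, 83.2, 94.8 and 78.8 in elavmin and 2.22, 1.497 and 1.53 in Δelav,fnenFNE and changed by -2.05 ± 0.10 and -7.70 ± 0.17. chp, a cell adhesion protein of the photoreceptor surface, changed by -0.64 and -7.55. The chaperones of rhodopsin and TRP, Xport and ninaA, changed by -0.54 and -0.80 in elavmin and by -6.69 and -6.97 in Δelav,fnenFNE. ninaA overlaps CG15824 on the other strand, their CPM stood in a ratio of 1.06 to 1.11 in the wild-type and elavmin libraries, and reads of the pair cannot be told apart without strand. The elavmin calls of both were lost without any 1 of the elavmin libraries.

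Of the genes that supply the chromophore, ninaG was among those more than 16-fold lower in Δelav,fnenFNE, and Pdh and ninaB were not. Pdh, a dehydrogenase of retinal pigment cells, had 1407, 1401 and 1218 CPM in wild type, 1278, 1143 and 1227 in elavmin and 1427, 1729.9 and 1330.1 in Δelav,fnenFNE, and was called in no comparison (-0.23 ± 0.09, -0.019 ± 0.11 and 0.22 ± 0.11), though DESeq2 called it lower in elavmin (adjusted p = 0.031). Its antisense neighbour asRNA:CR45894 moved with it at a ratio of 2.31 to 2.70 to 1. ninaB, the carotenoid oxygenase that makes the chromophore, fell by 0.44 and 0.79 in the mutants (edgeR adjusted p = 0.0148 and 0.00667), the first call being lost without elavmin library 3. ninaG, an oxidoreductase of chromophore synthesis, had 45.8, 48.03 and 86.9 CPM in wild type, where library 3 stood apart, 31.9, 31.9 and 32.2 in elavmin and 1.15, 1.08 and 0.765 in Δelav,fnenFNE. It was not called in elavmin (-1.004 ± 0.28, edgeR adjusted p = 0.0635) though it was with DESeq2 (adjusted p = 3.35e-05), and changed by -6.05 ± 0.37 in Δelav,fnenFNE.

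Of the whole phototransduction list, with the genes outside the 150 included, 25 of 37 were lower and 1 higher in elavmin. In Δelav,fnenFNE 31 were lower and 0 higher, and between the mutants 29 were lower and 0 higher. The shares of all genes that were lower were 10%, 13.8% and 6.23% in the same order. The members had median changes of -0.84, -7.21 and -6.22, against 0.01 for all genes in each comparison. The plot of fold changes for eye genes places elavmin and Δelav,fnenFNE side by side for each gene.

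**Figure D3:**
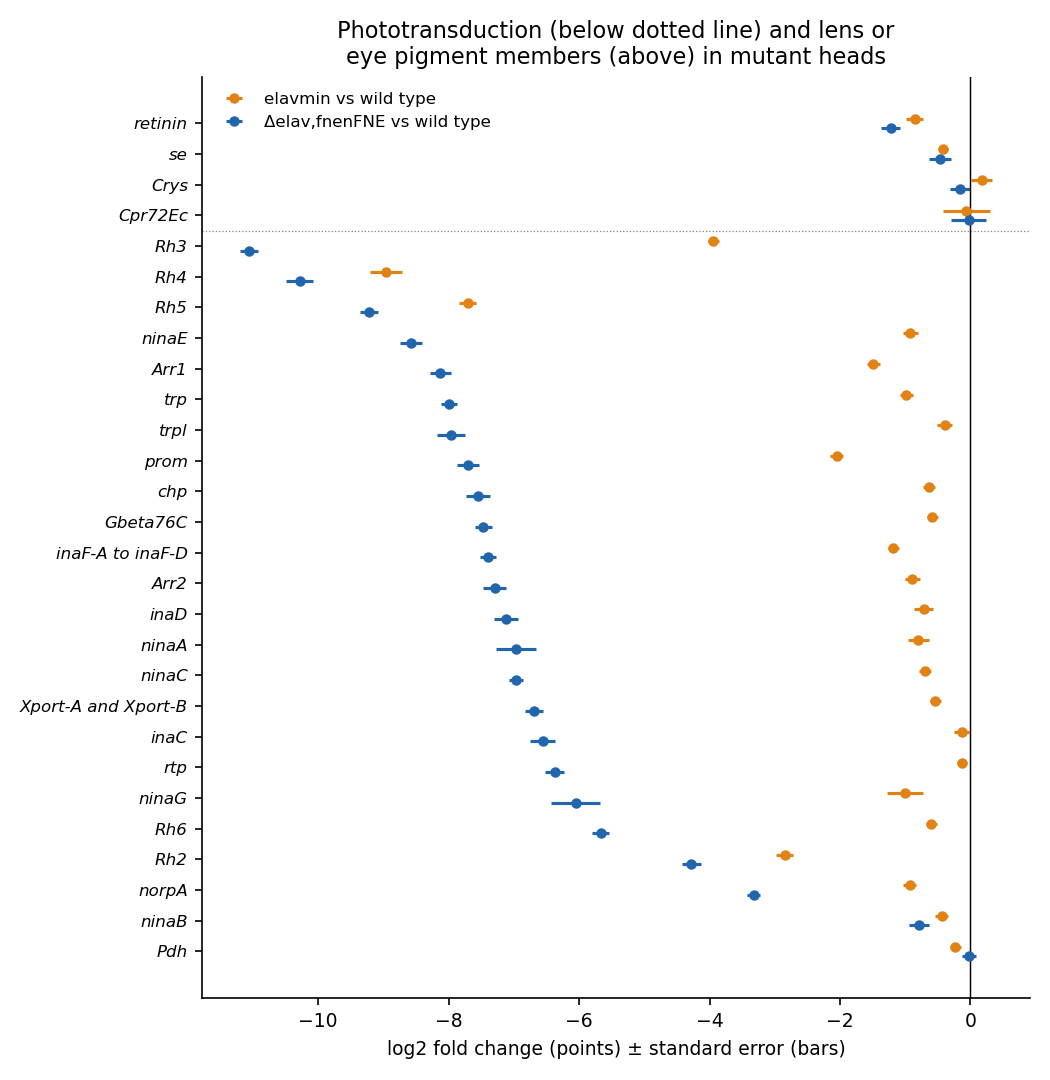
Log2 fold change against wild-type heads (edgeR, error bars are standard errors) of the phototransduction and the lens and eye pigment members. Values are for elavmin and Δelav,fnenFNE heads, which share the 3 wild-type libraries. Most genes sit between 0 and -2 in elavmin and between -5 and -9 in Δelav,fnenFNE. Rh4 and Rh5 are below -5 in both, and Pdh is near 0.

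Several genes outside the phototransduction list that were lower by at least 16-fold in Δelav,fnenFNE are also known from photoreceptors; PIP82, Culd, boss and t were picked out after their values were seen. lovit, a synaptic vesicle protein that photoreceptors need to store histamine, had 131, 132 and 139 CPM in wild type, 2.83, 3.16 and 2.23 in elavmin and 1.44, 1.64 and 1.22 in Δelav,fnenFNE. It was low in all 6 mutant libraries, with changes of -5.71 ± 0.11 and -6.71 ± 0.11, while the difference between the mutants (-0.998 ± 0.25, edgeR adjusted p = 0.0317) was lost in 4 of 6 fits without 1 library. Pph13, a homeodomain factor of photoreceptor differentiation, had 39.4, 42.99 and 40.5 CPM in wild type, 27.1, 23.7 and 26.9 in elavmin and 0.115, 0.140 and 0.663 in Δelav,fnenFNE, where the lowest library had 3 reads. Its changes were -0.75 ± 0.08 and -7.39 ± 0.36.

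Cpn, a calcium-binding protein of photoreceptors, had 557, 563 and 972 CPM in wild type, 255, 241 and 216 in elavmin and 2.30, 2.20 and 3.11 in Δelav,fnenFNE, with wild-type library 3 above the others and no overlap between groups. boss, the ligand by which R8 induces R7 during eye development, had 243, 259.9 and 243, 92.7, 106 and 90.2 and 2.53, 2.53 and 3.21 CPM and changed by -1.46 ± 0.08 and -6.68 ± 0.11. PIP82, a protein of photoreceptor polarity, was not called in elavmin at 327, 339 and 330.0 CPM against 279, 310.4 and 295, and changed by -6.17 ± 0.11 in Δelav,fnenFNE. Culd, which serves the trafficking of rhodopsin and TRP, was likewise not called in elavmin (-0.27) and changed by -5.79 ± 0.23. t, the hydrolase that frees histamine for reuse in photoreceptors, had 355, 381 and 517 CPM in wild type, 307, 338 and 325 in elavmin and 19.6, 21.00 and 18.7 in Δelav,fnenFNE, with changes of -0.46 ± 0.14 (edgeR adjusted p = 0.0528) and -4.58 ± 0.16.

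Exon usage was a measure that the choice of genes did not use. Of 680 exon bins in 130 members tested in elavmin heads, 13 bins in 7 genes changed their share of the gene's counts (edgeR adjusted p under 0.01), where 0.919% of all bins did, and in Δelav,fnenFNE 13 of 678 bins in 6 genes did, where 0.995% of all bins did. norpA held 7 of the latter. It has a pair of alternative coding exons of 80 bases each, at chrX:4353944-4354023 and chrX:4354471-4354550 on the plus strand, each in 3 of 6 annotated transcripts and never in the same one. The downstream exon took 81.4%, 82.0% and 83.8% of the reads of the pair in wild type, 76.6%, 74.7% and 75.9% in elavmin, and 2.08%, 3.49% and 3.01% in Δelav,fnenFNE. Its counts were 797, 827 and 1107 in wild type, 331, 405 and 428 in elavmin, and 4, 3 and 4 in Δelav,fnenFNE, while the upstream exon had 182, 182 and 214, then 101, 137 and 136, then 188, 83 and 129. Thus the remaining norpA mRNA of Δelav,fnenFNE heads carried almost entirely the upstream exon (edgeR adjusted p = 1.5e-18 for the downstream and 6.65e-13 for the upstream exon), and in elavmin neither was called (edgeR adjusted p = 1.0 and 0.352). The 5′ UTR exon at chrX:4347918-4348030 fell with the downstream exon, from 0.76% to 0.03% of norpA counts (edgeR adjusted p = 5.33e-13), and another at chrX:4322626-4323155 rose from 0.78% to 3.87% (edgeR adjusted p = 1.0e-13). Whether these counts come from photoreceptors or other cells was not tested.

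**Figure D4:**
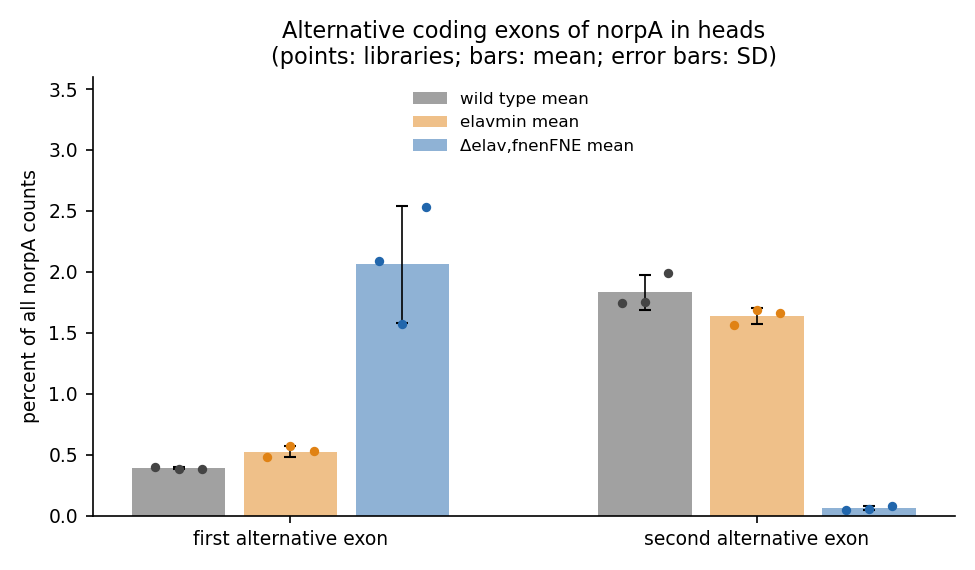
Share of norpA counts in its pair of alternative coding exons in heads, in percent of all norpA counts; points are libraries, bars are means of 3 and error bars are SD. The downstream (second) exon has 1.83% in wild type, 1.64% in elavmin and 0.06% in Δelav,fnenFNE, and the upstream (first) exon 0.39%, 0.53% and 2.06%.

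Of the 8 bins that fell in share in elavmin, 6 lay in the 3′ parts of norpA and ninaC. The last bin of norpA, a 3′ UTR segment at chrX:4364880-4365408, took 1.65%, 1.66% and 1.23% of norpA counts in wild type and 0.75%, 0.60% and 0.65% in elavmin (edgeR adjusted p = 2.41e-09). The groups did not overlap, whereas in Δelav,fnenFNE the share of the same bin was higher, at 4.07%, 7.42% and 3.57%. Library 2 of Δelav,fnenFNE, with the 7.42%, also had counts nearer the 3′ ends of genes in general. Their mean relative position was 0.545 there (higher is nearer the 3′ end), against 0.507 to 0.522 in the other head libraries. The part of this in the share was not tested. In ninaC the 5 bins from chr2L:7382758 to chr2L:7384344, which belong to 2 or 3 of its 4 transcripts, all fell, the last from 4.34% to 2.64% of ninaC counts (edgeR adjusted p = 1.79e-06). A 3′ UTR segment of mamo, a zinc-finger factor, annotated in 1 of its 7 transcripts, fell from 9.92% to 5.63% (edgeR adjusted p = 6.12e-05). Of the 150 genes, 0 were in the study's list of genes with a neuronal 3′ UTR, against 264 of the 7120 other genes above 10 CPM. The rule chose genes that were low in embryos, with a median of 0.383 CPM in wild-type late embryos. The study called its ELAV-dependent 3′ UTRs in embryos. This count is therefore not read as a trait of head genes.

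Of the 4 members of the lens and the screening pigment, 2 were lower in elavmin, where 10% of all genes were. In Δelav,fnenFNE 1 was lower, where 13.8% of all genes were. retinin, a lens protein, had 1395, 1379 and 1206 CPM in wild type, 944, 714 and 678 in elavmin and 756, 508 and 656 in Δelav,fnenFNE, below wild type in all 6 libraries, and changed by -0.86 ± 0.13 and -1.22 ± 0.15 (edgeR adjusted p = 0.00192 and 0.000474). The lens crystallin gene Crys had 39.3, 46.6 and 58.3, 54.1, 65.9 and 53.01 and 46.6, 55.9 and 43.1 CPM, overlapping in every comparison. The lens cuticle protein gene Cpr72Ec changed by -0.063 ± 0.36 and -0.027 ± 0.27 and was not called. se, an enzyme of red eye pigment synthesis, fell by 0.42 in elavmin (edgeR adjusted p = 0.00466, or 0.0772 with all head groups in one fit) and was at -0.47 ± 0.17 in Δelav,fnenFNE (edgeR adjusted p = 0.0715, or 0.045 with all head groups in one fit and 0.016 with DESeq2).

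Of the 3 clock genes, 2 fell in both mutants, where 10% of all genes were lower in elavmin and 13.8% in Δelav,fnenFNE. tim, a clock repressor, had 1754, 1831 and 1756 CPM in wild type, 1048, 1111 and 1105 in elavmin and 964, 891 and 1008 in Δelav,fnenFNE, and its partner per had 259, 249 and 302, 195, 202 and 189 and 105, 85.5 and 114.7. Both were below wild type in all 6 mutant libraries, with changes of -0.80 and -1.07 for tim and -0.56 and -1.58 for per. cry, the blue-light receptor of the clock, was called in no comparison (-0.18 and -0.21). The hour of the day at which heads were taken is not given in the sources used here, so a part of it in these values was not tested. HisCl1, a histamine-gated chloride channel, had 40.1, 45.2 and 45.8 CPM in wild type, 31.8, 32.4 and 31.6 in elavmin and 14.161, 21.4 and 20.1 in Δelav,fnenFNE, and fell in both (-0.54 ± 0.08 and -1.42 ± 0.14).

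Another group of steep falls lay outside the eye genes and was shared by both mutants. CG8343 had 1029, 977 and 965 CPM in wild type, 72.05, 35.3 and 93.4 in elavmin and 30.97, 31.4 and 59.2 in Δelav,fnenFNE, changes of -3.97 ± 0.38 and -4.79 ± 0.29 (edgeR adjusted p = 0.0025 and 7.52e-05). CG8329, CG3088, CG9676, CG11211 and CG7829 had the same form, with changes between -4.46 and -3.70 in elavmin and between -5.07 and -4.20 in Δelav,fnenFNE. CG32523 (-2.995 and -3.01) and CG31205 (-2.45 and -2.79), picked out after their values were seen, fell less. RefSeq lists SP or SPH synonyms, the prefixes used for serine proteases and their inactive homologues, for CG8329, CG3088, CG9676, CG7829, CG32523 and CG31205. None of these genes was called between the mutants, where the standard errors were 0.26 to 0.95.

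The mutant libraries varied together in these genes. The sum over CG8343, CG8329, CG3088, CG9676, CG11211, CG7829 and CG32523 was 3069.6, 2945 and 3081 CPM in wild type, 243, 102 and 298 in elavmin and 90.1, 127 and 198 in Δelav,fnenFNE. elavmin library 2 was the lowest of its group in each of the 7, and Δelav,fnenFNE library 1 was the lowest of its own. The elavmin call of CG7829 was lost in 5 of 6 fits without 1 library, and that of CG32523 in Δelav,fnenFNE in 4 of 6, while the other calls of CG8343, CG8329, CG3088, CG9676, CG11211 and CG31205 against wild type held in all of them. The 5 gut markers, mainly the starch and sugar enzymes Amy-d and Mal-A1, summed to 12.7 to 20.6 CPM in wild type, 19.2 to 28.2 in elavmin and 49.1 to 72.4 in Δelav,fnenFNE, and their part in these values was not tested. The serine protease markers alphaTry, betaTry and Jon65Aiv lay at 0 to 0.282 CPM in every head library.

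Of the immune and stress members, 4 of 11 tested were higher and 0 lower in elavmin, where 10.2% and 10% of all genes were. In Δelav,fnenFNE 5 of 12 were higher and 1 lower, where 14.4% and 13.8% of all genes were. BomS1, one of the Bomanin genes of short peptides made in Toll-driven immunity, had 67.6, 39.7 and 51.2 CPM in wild type, 147, 112 and 167 in elavmin and 340.1, 257 and 529 in Δelav,fnenFNE, the 3 groups standing in that order without overlap. It rose by 1.34 ± 0.24 (edgeR adjusted p = 0.0179) and 2.65 ± 0.35 (edgeR adjusted p = 0.00444). BomS2 (1.05 and 2.09), BomS3 (1.15 and 1.90) and BomT3 (0.68 and 1.61) rose in both, and BomS4 in Δelav,fnenFNE alone was called (0.30 and 1.01). BomS6, BomBc2 and BomT2 were not called in either. The elavmin calls of BomS1, BomS2, BomS3 and BomT3 were each lost in 2 or 3 of 6 fits without 1 library, elavmin library 1 and library 3 being among those left out each time, and the Δelav,fnenFNE calls held in all 6. Of the 8 Bomanin members, 7 lie together at chr2R:18383949-18390629.

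Bbd, which Bomanin activity needs, had 253, 198 and 239 CPM in wild type, 447, 345 and 448 in elavmin and 1229, 486 and 1079 in Δelav,fnenFNE, with changes of 0.76 ± 0.13 and 1.85 ± 0.38. The first call ended when all head groups were fitted together (edgeR adjusted p = 0.159) and the second in 5 of 6 fits without 1 library. Dso1, a Toll-induced peptide of the Daisho pair, was called in Δelav,fnenFNE (1.37 ± 0.27, edgeR adjusted p = 0.0116), with DESeq2 also in elavmin (adjusted p = 0.000585), and Dso2 in no comparison. TotA, a stress-induced secreted protein, went the other way in Δelav,fnenFNE, at 14.6, 19.2 and 21.3 CPM against 73.2, 43.5 and 29.2 (-1.58 ± 0.37, edgeR adjusted p = 0.0292, lost in 4 of 6 fits without 1 library). Of the whole immune and stress list, 17 of 77 genes tested were higher and 1 lower in elavmin, and 35 of 81 higher and 8 lower in Δelav,fnenFNE. Outside the members, 13 of 66 and 30 of 69 were higher, where 10.2% and 14.4% of all genes were. Lower were 1 and 7, where 10% and 13.8% of all genes were. Rises were not confined to this list: of 129 detoxification genes outside the members, 39 and 43 were higher and 10 and 12 lower. Fat body markers, of which Lsp2 was a member, summed to 2087 to 3160 CPM in wild type, 3153 to 4066 in elavmin and 4184 to 5081 in Δelav,fnenFNE, and their part in these values was not tested.

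AttC, DptA and DptB, antimicrobial peptide genes of the Imd pathway, entered the set through 1 library. AttC had 191, 0.666 and 0.660 CPM in the wild-type libraries, DptA 93.6, 0 and 0.176 and DptB 92.9, 0.476 and 0.264. Library 1 held over 99.2% of the wild-type sum of each, and the mutant libraries also ran over a wide range, from 1.56 to 255 CPM for AttC. They were called in no comparison, and DptA had too few reads to be tested in elavmin. The plot of the uncharacterised genes and the Toll-pathway peptide genes gives each library, and leaves out AttC, DptA and DptB.

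**Figure D5:**
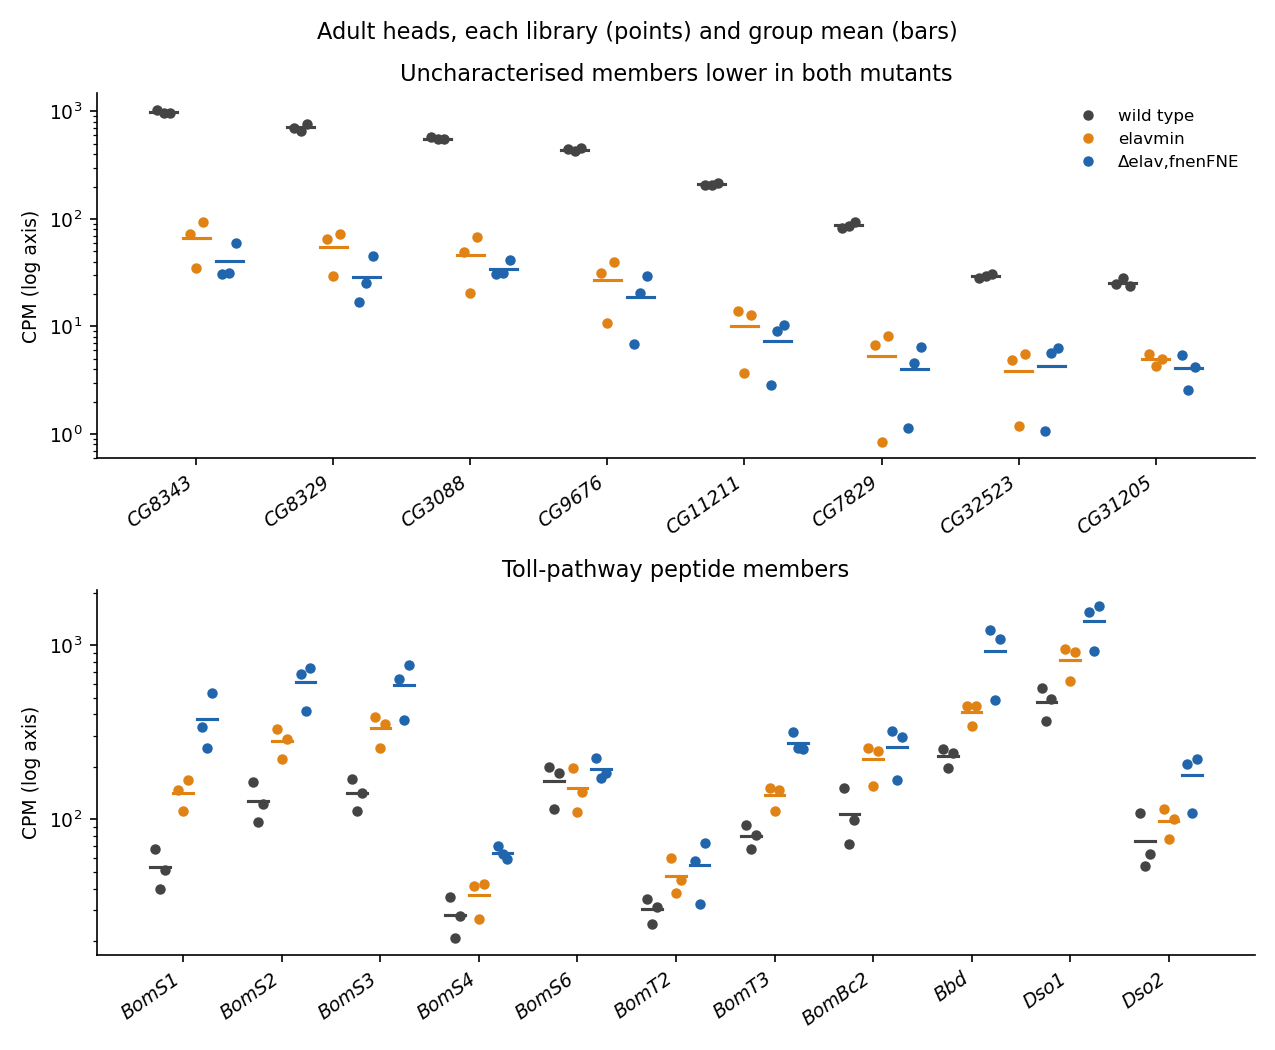
CPM by head library on a log axis for the uncharacterised genes that were lower in both mutants and for immune peptide genes, coloured by genotype with 3 libraries each. CG8343 lies at 965 to 1029 CPM in wild type and under 94 CPM in every mutant library. BomS1 rises from 39.7 to 67.6 CPM in wild type to 257 to 529 in Δelav,fnenFNE.

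Of the 7 odorant-binding protein genes, 4 were lower and 0 higher in elavmin, where 10% and 10.2% of all genes were. In Δelav,fnenFNE 3 were lower and 1 higher, where 13.8% and 14.4% of all genes were. Obp99b had 133, 68.4 and 107 CPM in wild type, 28.5, 21.3 and 41.8 in elavmin and 318, 242 and 241 in Δelav,fnenFNE, below wild type in all elavmin libraries and above it in all Δelav,fnenFNE libraries. The changes were -1.84 ± 0.37 (edgeR adjusted p = 0.0294) and 1.20 ± 0.26 (edgeR adjusted p = 0.0191), lost in 4 and 3 of 6 fits without 1 library, and the difference between the mutants (3.05 ± 0.27, edgeR adjusted p = 0.000912) held in all. Obp57a had 31.9, 19.2 and 26.3 CPM in wild type, 38.5, 32.6 and 43.3 in elavmin and 7.17, 11.04 and 9.70 in Δelav,fnenFNE. It fell in Δelav,fnenFNE (-1.66 ± 0.22), while its neighbours Obp57b and Obp57c, within 10 kb on 2R, were not called against wild type. Obp56g and Obp56e fell in both mutants, Obp56g by 0.64 and 0.59 and Obp56e by 0.94 and 0.75, Obp56e sharing bases with asRNA:CR44509 on the other strand.

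Among neuropeptide genes, AstC-R1, a receptor of the peptide allatostatin C, had 34.8, 40.7 and 33.2 CPM in wild type, 7.87, 9.20 and 8.72 in elavmin and 8.03, 11.3 and 8.22 in Δelav,fnenFNE. Both mutants were low, at -2.16 ± 0.11 and -2.16 ± 0.14 (edgeR adjusted p = 1.86e-06 and 6.43e-06), with a difference of 0.018 ± 0.16 between them that was not called. Nplp3, a neuropeptide-like precursor, had 845, 863 and 676 CPM in wild type, 381, 377 and 316 in elavmin and 1059, 961 and 779 in Δelav,fnenFNE. It fell in elavmin alone (-1.24 ± 0.11 against 0.059 ± 0.13), and the mutants differed (1.31 ± 0.13, edgeR adjusted p = 0.000283). Ilp2, an insulin-like peptide of brain neurosecretory cells, fell by 0.55 and 0.52, and Trissin was not called.

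CAH9, a carbonic anhydrase, was the member with the largest rise in elavmin. It had 43.98, 39.5 and 49.4 CPM in wild type, 254, 242 and 302 in elavmin and 33.6, 28.02 and 35.2 in Δelav,fnenFNE, so that every elavmin library was above and every Δelav,fnenFNE library below the wild type. The changes were 2.496 ± 0.11 (edgeR adjusted p = 1.86e-06), -0.63 ± 0.12 (edgeR adjusted p = 0.00408) and -3.11 ± 0.13 between the mutants. CG4461, for which RefSeq lists the heat shock synonym Hsp20, went from 49.6, 50.5 and 47.9 CPM in wild type to 109, 128 and 122 in Δelav,fnenFNE (1.10 ± 0.08) but fell in elavmin (-0.28 ± 0.06, edgeR adjusted p = 0.0143), a call lost without elavmin library 3 and with library totals. CG40485, CG1552 and CG10205 rose in both mutants by 0.36 to 0.92, without overlap.

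Fat body and detoxification genes gave few calls. Lsp1beta, a larval storage protein, had 313, 167 and 213 CPM in wild type, 783, 621 and 989 in elavmin and 344, 489.7 and 544 in Δelav,fnenFNE and rose in elavmin (1.70 ± 0.29, edgeR adjusted p = 0.0133, lost without elavmin library 1). sxe2, a lipase-like gene of the fat body list, fell by 1.07 and 0.78, calls that were lost in 4 and 1 of 6 fits without 1 library. Of the cytochrome P450 genes, Cyp6g1 (1.26 ± 0.28) and Cyp6w1 (0.83 ± 0.19) rose in Δelav,fnenFNE and were lost in 2 and 3 of 6 fits without 1 library, and Cyp313a1, Cyp4d21 and Cyp12b2 were not called, though DESeq2 called Cyp4d21 higher in Δelav,fnenFNE (0.65, adjusted p = 0.00559). The cuticle genes Cpr65Au and Cpr47Ee were not called in any comparison, though in elavmin Cpr47Ee was called higher with DESeq2 (0.36, adjusted p = 0.0452) and with all head groups in one fit (edgeR adjusted p = 0.0458).

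Some moderate falls grew from elavmin to Δelav,fnenFNE in genes picked out after their values were seen. eEF1alpha2, a translation elongation factor, changed by -0.31 ± 0.08, -0.92 ± 0.08 and, between the mutants, -0.60 ± 0.08, the elavmin call being lost in 3 of 6 fits without 1 library. CG17739 had 504, 494 and 563 CPM in wild type, 370.1, 357 and 352 in elavmin and 157, 148 and 166 in Δelav,fnenFNE, with 3 groups that did not overlap. CG9813 (-0.56 and -1.23) and CG17378 (-0.55 and -1.38) had the same order. In all, 52 of the 150 genes were called in no head comparison, among them rdhB, mamo, Syp, Eip93F and CG4716.

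The libraries of 2 groups did not overlap in CPM for 90 members in elavmin against wild type, where this held for 41.1% of genes tested, for 113 in Δelav,fnenFNE, where it held for 52.6%, and for 73 between the mutants, where it held for 34.2%. Of the calls, 49 of 72 in elavmin, 71 of 84 in Δelav,fnenFNE and 44 of 57 between the mutants held in each of the 6 fits that left out 1 library.

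The members had short, simple genes. Their median summed exon length was 1289 bases in a median of 3 exon bins, against 2522 bases and 6 bins for the 7120 other genes above 10 CPM in wild-type heads, and 52.7% had at most 3 bins against 22.8%. They lay on all large chromosome arms, 39 on 2R, 41 on 3R, 26 on 2L, 23 on 3L and 21 on X, and 0 on chromosome 4. Within 10 kb of another member lay 40 of them, in 16 clusters, of which the largest was that of the Bomanin genes. Another annotated gene overlapped 58 members, and for such genes reads of the partners cannot be told apart where strand was not used in counting.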

How the data were processed

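Poly(A)+ RNA from pools of 12 male heads per library (15 embryos in the embryo groups) was sequenced in the study with a stranded mRNA kit. The deposited tables hold counts per exon bin, which the authors made by aligning reads to the dm6 assembly and counting them in flattened gene models; the submitters' processing notes name STAR, Subread and featureCounts. Whether strand was used in counting is not given in the sources used here. In every head library asRNA:CR44181 and CG7300, which overlap on opposite strands, stood at a CPM ratio of 0.996 to 1.005. Counting without strand would give such equal values. Members that share bases on opposite strands therefore cannot be taken as independent. The 84619 bins were summed to 17027 gene IDs, of which 626 are merged IDs of overlapping genes. The deposited tables of the authors' own comparisons, which hold fold changes and p-values, were not used.

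CPM (counts scaled to the library total), with a pseudocount of 1 and a minimum mean of 10 CPM in wild-type heads, chose the members, so the head-to-embryo contrast is a description. Members, functional lists and marker lists were chosen with earlier results of these data known. Head groups were compared in pairs with edgeR 4.0.16 (TMM scaling, filterByExpr, robust quasi-likelihood test, Benjamini-Hochberg over all genes tested, threshold 0.05) in R 4.3.3, and bin usage with diffSpliceDGE at a threshold of 0.01. Tested on simulated counts, edgeR recovered 100% of genes changed by 1 or 3 on the log2 scale in each of the 3 head comparisons, with 11 to 14 false calls. The simulation gave every gene the same small dispersion and changed only well-counted genes. Recovery for more variable genes or genes with few reads was therefore not measured. Nothing in the labels says that libraries of a group came from separate crosses, so p-values measure the spread between these pools.

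Named genes were the 10 members with the highest ratio, up to 10 per direction and head comparison with the largest change among called members without overlap, all members of the phototransduction and the lens and pigment lists, the 3 genes on either side of the limit, elav and fne, and the member with the lowest adjusted p in each list. Alternatives were DESeq2 1.42.0, RLE size factors, no filter, all head groups in one fit, the library letter as a block, leaving out each library, other thresholds, pseudocounts of 0.1 and 5, and 100 members. Library totals, leaving out the phototransduction members or AttC, DptA and DptB, and choosing members without wild-type head library 1 were added after seeing the data. Sequences are from the RefSeq release of dm6. Gene starts are from the Ensembl annotation, in which 16004 of 16117 genes with a single ID had the same bounds as in the deposited tables.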

Additional observations from a re-analysis of the deposited data

Results flagged for a closer look

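Among the 4 elavmin late embryo libraries, the share of counts in the 150 genes was 0.0321% in library 2, against 0.0271%, 0.0273% and 0.0273% in the others. It stood apart from the other 3 by 0.955 of the group's range, over the limit of Dixon's test for a group of this size. The shares of 8 groups of 4 libraries were examined in this way, and chance would set apart about 1 group in 20. No head result uses these libraries.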

How the results depend on the processing

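Precision is limited by 3 pools per group and, for genes under about 3 CPM in Δelav,fnenFNE heads, by counts of a few reads. For counts and medians over the members, 98 values under the other settings stayed close to the reported ones and 20 moved. With library totals the median of the members was -0.093 in elavmin, 0.13 in Δelav,fnenFNE (43 higher) and 0.055 between the mutants, as the median of all genes rose to 0.099, 0.19 and 0.079. With adjusted p under 0.01, 5, 14 and 7 members were higher in the 3 comparisons. The 100 members with the highest ratio gave 8, 14 and 11 higher, and medians of -0.27 in elavmin and -0.16 in Δelav,fnenFNE. Without the phototransduction members 38, 37 and 18 were lower, with medians of -0.063, 0.059 and 0.059. Without the filter on low bins 22 member bins changed usage in Δelav,fnenFNE. The cause of these moves was not tested, other than the fewer genes counted or the stricter threshold. The choice of the 150 genes shared 148 with TMM-scaled CPM, 145 without wild-type head library 1, 123 with a pseudocount of 0.1 and 118 with 5.

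Leaving out each library in turn, elavmin gave 49 to 54 lower, 7 to 18 higher and medians of -0.24 to -0.15; Δelav,fnenFNE gave 58 to 61, 16 to 29 and -0.11 to -0.035; and the mutants compared with each other gave 37 to 41, 7 to 20 and -0.081 to 0.014. The lowest counts of 7 and 8 higher in elavmin came without elavmin library 1 and, for 8, without elavmin library 3 or wild-type library 3. Bins with changed usage numbered 9 to 13 and 11 to 14.

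The letters a to c of the libraries were tried as a replicate block. Same-lettered libraries correlated at 0.06 to 0.55 between wild type and elavmin, where 5 of 6 libraries correlated best with their own letter, at 0.02 to 0.24 between wild type and Δelav,fnenFNE (3 of 6) and at 0.02 to 0.03 between the mutants (1 of 6), so the letters were not taken as pairs. With the block, 67 were lower and 31 higher in elavmin, 58 and 33 in Δelav,fnenFNE, and 38 and 22 between the mutants, and 16 and 12 bins changed usage. Pdh was then called lower in elavmin and Cpr47Ee higher in both mutants against wild type. CG1552 reversed from 0.01 to -0.0011 between the mutants.

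Named genes whose sign turned were all uncalled. With library totals these were spab (0.028), Cpr65Au (0.036) and Cpr72Ec (0.024) in elavmin, Obp19d (0.13), Crys (0.014), Pdh (0.16) and Cpr72Ec (0.15) in Δelav,fnenFNE, and Cpr47Ee (0.0048), se (0.036) and CG3597 (0.0017) between the mutants. Without 1 library the ranges in elavmin were -0.079 to 0.16 for Ser7, -0.11 to 0.051 for Cpr65Au, -0.52 to 0.12 for Cpr72Ec, -0.016 to 0.26 for Cyp4d21, -4.58 to 4.19 for DptB and -0.22 to 0.0035 for inaC. In Δelav,fnenFNE they were -0.19 to 0.046 for Obp19d, -0.050 to 0.17 for Nplp3, -0.12 to 0.058 for Pdh, -0.35 to 0.18 for Cpr72Ec, -0.12 to 0.17 for asRNA:CR45894, -0.0088 to 0.21 for Cpr65Au, -0.11 to 0.32 for fne, -0.070 to 0.24 for Ser7, -1.64 to 7.46 for DptB and -0.30 to 0.0046 for Crys. Between the mutants they were -0.23 to 0.16 for Cyp6w1, -0.10 to 0.20 for Ser7, -0.33 to 0.12 for CG11841, -0.0057 to 0.046 for CG40485, -0.12 to 0.12 for CG1552, -0.017 to 0.17 for Obp56g, -0.15 to 0.10 for AstC-R1, -0.28 to 0.50 for Cpr72Ec, -0.15 to 0.14 for se, -0.25 to 0.20 for fne, -0.27 to 0.10 for CG3597 and -0.16 to 0.024 for Cpr47Ee.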
